A study of Mus musculus with 6 samples.

Results

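The genes described here encode the hnRNP proteins, the SR proteins and their closest partners in the choice of splice sites. They were taken from a gene count table of Neuro2a cells, a mouse neuroblastoma line, as every gene whose symbol begins with Hnrnp, Hnrp, Srsf or Sfrs, or is Clk1 to Clk4, Tra2a or Tra2b. This gave 37 of 24391 genes in the table: 20 hnRNP genes, 11 SR protein genes, 2 Transformer-2 genes and 4 CLK kinase genes. Poly(A) RNA was sequenced in 3 control libraries, whose cells received vehicle, and in 3 libraries of cells exposed for 18 h to D-serine, the mirror-image form of L-serine, at 5 mM. Both groups had grown in D-MEM and were then moved to a medium written as D-MEM(-SG), and 10% fetal bovine serum was present throughout, so the control cultures shared the change of medium. The labels name 1 cell line and do not say whether the 3 libraries of a group came from separate cultures on separate days, and the p-values measure the spread between these libraries, which may be partly technical.

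SR proteins carry one or more RNA recognition motifs and a tail rich in arginine and serine, bind exons, and generally promote the use of nearby splice sites. The hnRNP proteins coat nascent transcripts and often act against SR proteins at the same exons. CLK kinases phosphorylate the serines of the SR tail and so release SR proteins from nuclear speckles, and the Transformer-2 proteins are SR-like activators of exons. Many of these genes control their own amount through transcripts that hold a poison exon or a retained intron. Counts per gene, as used here, do not separate such transcripts from the coding ones.

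Total counts per library lay between 32518483 and 40024265. Control and D-serine totals gave p = 0.4 in an exact permutation test (two-sided), and with groups of 3 no p below 0.1 can be reached. All 10 markers listed for neuroblastoma cells were above 1 CPM (the count relative to the library total in the usual CPM unit, after scaling by the trimmed mean of M values, TMM), and their summed level was 1650 to 1750 CPM in control and 1770 to 1920 CPM with D-serine. These ranges did not overlap, and their part in the results below was not tested. Markers of other cell types summed to at most 16.5 CPM for each type, and Aqp4, Mag, Olig2, Lum and Cd3e had no count in any library. D-serine replicate 1 stood apart in its dependence on gene length. Its slope of log2 CPM on log2 length, relative to the mean of the 6 libraries, was -0.0685, against -0.00468 to 0.0344 in the other 5 libraries. The control slopes, 0.0114 to 0.0344, lay above all 3 D-serine slopes, of which the highest was 0.00758 (replicate 2). The trend thus also differed by group without overlap, and removing it may remove part of a difference between the groups. Values with the length trend removed or without D-serine replicate 1 are therefore given where either changed the call of a member. They are also given for the members whose values moved most and for some of the other genes listed.

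How well a gene's reads can be told apart from those of its relatives differs among these genes. The pairs below are examples and were not chosen as the closest cases among these genes. For Hnrnpa1, however, the partner was the gene that shared most with it. In GENCODE M21 transcripts, the coding transcripts of 11 of the 37 genes, among them Tra2a, Hnrnpu, Srsf6 and Clk1, shared no stretch of 50 bases with any other gene. In 8 genes over 25% of such stretches recurred elsewhere, and in 13 the gene that shared most was annotated as a pseudogene. The most alike coding stretches of 120 bases are printed for 3 pairs, 5′ to 3′, with the bases that differ between the 2 genes in capitals.

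Tra2a: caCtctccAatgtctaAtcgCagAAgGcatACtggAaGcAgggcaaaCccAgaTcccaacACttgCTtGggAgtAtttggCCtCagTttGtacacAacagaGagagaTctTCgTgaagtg
Tra2b: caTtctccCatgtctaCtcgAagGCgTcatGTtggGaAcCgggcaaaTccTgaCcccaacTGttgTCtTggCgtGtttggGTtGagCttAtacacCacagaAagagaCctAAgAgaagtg
Hnrnph1: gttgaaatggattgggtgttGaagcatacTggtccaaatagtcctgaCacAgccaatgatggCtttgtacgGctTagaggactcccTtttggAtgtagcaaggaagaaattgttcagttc
Hnrnph2: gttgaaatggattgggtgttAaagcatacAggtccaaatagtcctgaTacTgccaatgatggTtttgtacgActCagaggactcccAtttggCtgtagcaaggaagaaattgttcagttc
Hnrnpa1: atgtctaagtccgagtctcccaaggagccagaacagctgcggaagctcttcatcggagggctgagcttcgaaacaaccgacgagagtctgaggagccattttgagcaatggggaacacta

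Even in their most alike stretch, Tra2a and Tra2b differed at 33 of 120 bases, with at most 7 identical bases in a row, so their reads are not interchangeable. Tra2b itself shared 17.6% of its 50-base stretches with 4 other genes, all annotated as pseudogenes, whereas Tra2a shared none. Hnrnph1 and Hnrnph2 differed at 9 of 120 bases, with up to 27 identical bases in a row. The Hnrnpa1 stretch, which is the first 120 bases of its coding sequence, was identical in Gm10052, a processed pseudogene. Hnrnpa1 shared 46.7% of its 50-base stretches and 43% of its 100-base stretches with other genes, 20 in all, each annotated as a pseudogene. Srsf4 shared 65.4% of its 50-base stretches, all with Gm12992, and Hnrnpf 61.9%. How reads that map to several places were handled is not given in the sources used here.

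Most of these genes were strongly expressed. Compared per length, in TPM (the count per base of deposited exon length, rescaled so that every library has the same sum), Srsf2, which encodes a core SR protein, was highest at a mean of 1081 TPM over the 6 libraries. It was followed by Hnrnpu, which encodes a nuclear scaffold and RNA-binding protein, at 954 TPM, and by Hnrnpa2b1, which encodes a core hnRNP protein, at 809 TPM. Hnrnpk, whose protein binds C-rich RNA through KH domains, reached 791 TPM. Among the Transformer-2 and CLK genes, Tra2b was at 432 TPM, Tra2a at 243, Clk4 at 142, Clk1 at 93.6 and Clk3 at 67.6 TPM. Srsf12 was the 1 gene not expressed highly enough to be tested, with 2, 2 and 0 counts in control replicates 1 to 3 and 3, 2 and 1 counts in D-serine replicates 1 to 3, where a count of 0 allows up to 3.

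The 5 tested genes with the lowest level per length were Srsf4, Hnrnpa3, Hnrnph3, Hnrnpa1 and Clk2, and these were also the 5 whose exons overlapped those of another gene of the deposited table by more than 25% of their length. Hnrnph3 was at 19.0 TPM and shared 81.4% of its exonic bases with Rufy2 on the opposite strand. Hnrnpa1 was at 11.8 TPM and shared 80.3% with Gm5643 and Gm10052 on its own strand. Clk2 was at 3.45 TPM and shared 70.1% with the read-through transcript Clk2-scamp3, which was listed at 0 counts in all 6 libraries. Gm10052, and Gm6793, which covers 27.9% of Hnrnpa3, were also at 0 in all 6 libraries. Srsf4 was at 25.3 TPM and shared 68.8% with Gm12992 on the opposite strand. Taken over the bases that no other gene shares, the same counts correspond to 102 TPM for Hnrnph3, 81.2 for Srsf4, 60.2 for Hnrnpa1, 34.1 for Hnrnpa3 and 11.5 for Clk2. The other 31 tested genes lay between 65.2 and 1081 TPM, and of these Hnrnpk and Hnrnpab shared exonic bases, at 3.96% and 2.12% of their length. The levels of those 5 genes are therefore uncertain, since the sources used here do not give how reads in shared bases were counted. Sequence that recurs in other genes leaves a like uncertainty, as the treatment of reads mapping to several places is not given either. Outside those 5 genes, Hnrnpf shared 61.9% of its 50-base stretches with other genes, Srsf2 31.8%, Clk3 31.7%, Srsf3 31.5% and Hnrnpk 25.6%.

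**Figure D1:**
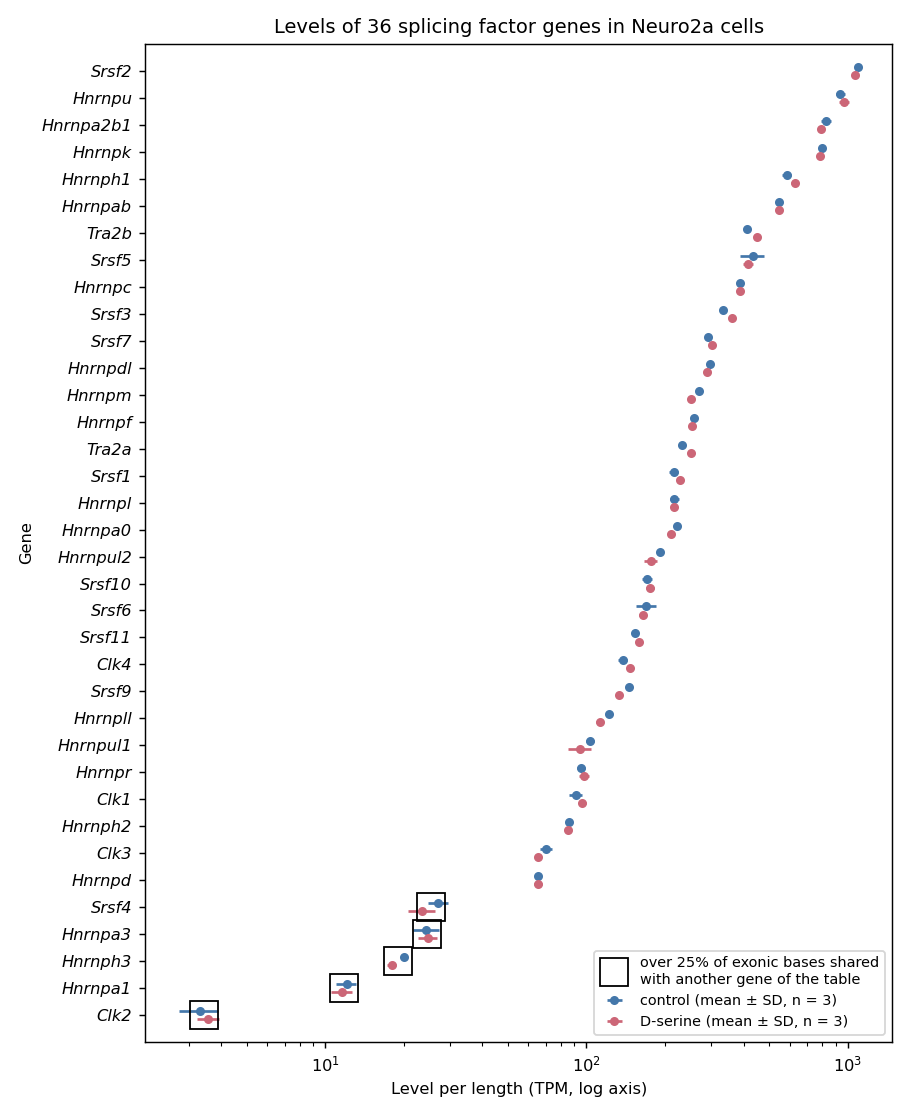
Level per length (TPM, log axis) of the 36 tested genes, with the mean and SD of the 3 control and of the 3 D-serine libraries. Boxes mark the 5 genes with over 25% of exonic bases shared with another gene of the table, which hold the 5 lowest places from Srsf4 at 25.3 TPM down to Clk2 at 3.45 TPM.

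D-serine cultures were then compared with control cultures to find which of these transcripts differed when D-serine was present. Of the 36 genes tested, 1 passed an adjusted p of 0.05 in the edgeR quasi-likelihood test, Tra2b, which rose, and none passed with a decrease. That is 2.78% of the members, against 9.74% of all 13366 genes tested (4.84% higher and 4.90% lower). The division of all called genes, 647 higher and 655 lower, became 914 and 412 with upper quartile scaling and 944 and 412 with library totals. At an unadjusted p under 0.05 there were 12 members (33.3%), 7 with a positive and 5 with a negative log2 fold change, against 28.2% of all genes. Control and D-serine libraries were fully separated in 16 members (44.4%), against 32.9% of all genes. Of the 36 members, 10 were higher in D-serine without overlap and 6 were lower. Of all 13366 genes tested, 2168 (16.2%) were higher without overlap and 2223 (16.6%) were lower. DESeq2, which called 13.9% of the genes it tested, and limma-voom, which called 9.43%, also called Tra2b and no other member. The median log2 fold change was 0.007 over the members and 0.005 over all genes tested.

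The differences were small and narrowly bounded. Log2 fold changes ran from -0.19 in Srsf4 to 0.15 in Tra2b, and their median size was 0.062, against 0.12 over all genes tested. The 95% interval of the difference lay wholly between -0.2 and 0.2, which is a change from -12.9% to 14.9%, in 24 of the 36 members (66.7%), against 27.1% of all genes. This bound was chosen after the values were seen. These genes are more abundant than most, with a median of 266 CPM against 29.2 CPM over all genes tested, and abundant genes have narrower intervals. Among genes of at least 50 CPM the interval lay within the bound in 24 of 32 members (75.0%) and in 54.2% of all 4972 such genes. In the same class the test called 1 of 32 members (3.12%) and 13.9% of all genes. An unadjusted p under 0.05 was found in 34.4% of these members and in 36.5% of all genes of the class. Control and D-serine libraries were fully separated in 43.8% of these members and in 41.6% of all genes of the class. In bulk RNA, a change in the share of cells that express a gene and a change in its RNA per cell cannot be told apart.

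**Figure D2:**
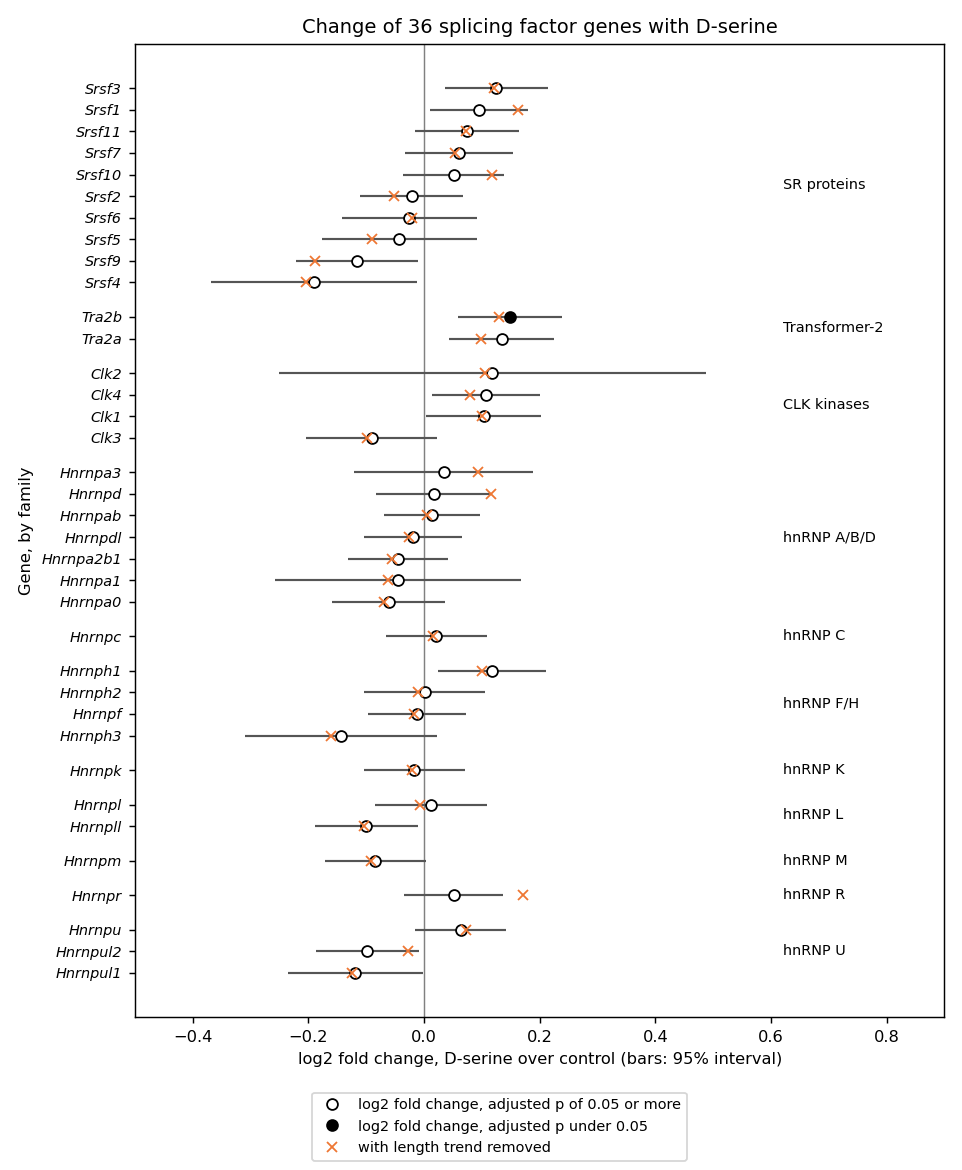
Log2 fold change of the 36 tested genes, D-serine over control, by family, with the 95% interval as a bar and the value with the length trend removed as a cross. The filled point is Tra2b at 0.15, the 1 gene with an adjusted p under 0.05, and Clk2 has the widest interval, from -0.25 to 0.49.

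The Transformer-2 pair had the 2 largest increases in value among the 36 members. Tra2b (chromosome 16, 22245814 to 22266002, minus strand, as deposited), an SR-like exon activator that also limits its own messenger through a poison exon, was at 367, 374 and 371 CPM in control replicates 1 to 3 and at 420, 392 and 421 CPM in D-serine replicates 1 to 3. All 3 D-serine libraries lay above all 3 control libraries, and D-serine replicate 2 was nearest to the control. The increase was 10.9% (log2 fold change 0.15, SE 0.042, 95% interval 0.059 to 0.24, edgeR adjusted p = 0.0418). The call held in 12 of 17 other analyses and was lost without control replicate 1 (adjusted p = 0.15), control replicate 2 (0.136), control replicate 3 (0.109) or D-serine replicate 3 (0.147), and with the replicate number as a block (0.111). Its log2 fold change was 0.13 with the length trend removed (edgeR adjusted p = 0.00885) and 0.13 without D-serine replicate 1 (adjusted p = 0.017), and over all 17 analyses it lay between 0.13 and 0.18.

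Tra2a (chromosome 6, 49193920 to 49214051, minus strand, as deposited), the paralog of Tra2b, was at 179, 179 and 180 CPM in control and at 203, 195 and 192 CPM with D-serine. The groups did not overlap, and the control libraries lay within about 1 CPM of each other. Its log2 fold change of 0.13 (SE 0.042, 95% interval 0.044 to 0.22) had an edgeR adjusted p of 0.0595 and so missed the threshold. It passed in 5 of the 17 other analyses, including upper quartile scaling (adjusted p = 0.0345), library totals (0.0309), removal of the length trend (0.0353) and omission of D-serine replicate 1 (0.0498). Added together, the Transformer-2 pair took 0.0544% ± 0.00032 of all counts in control and 0.0614% ± 0.0021 with D-serine (SD, n = 3 each). This share does not use TMM scaling. On the TMM scale the summed level of the pair was 546, 554 and 551 CPM in control and 624, 587 and 613 CPM with D-serine. Whether the 2 genes differed in their response was not tested.

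**Figure D3:**
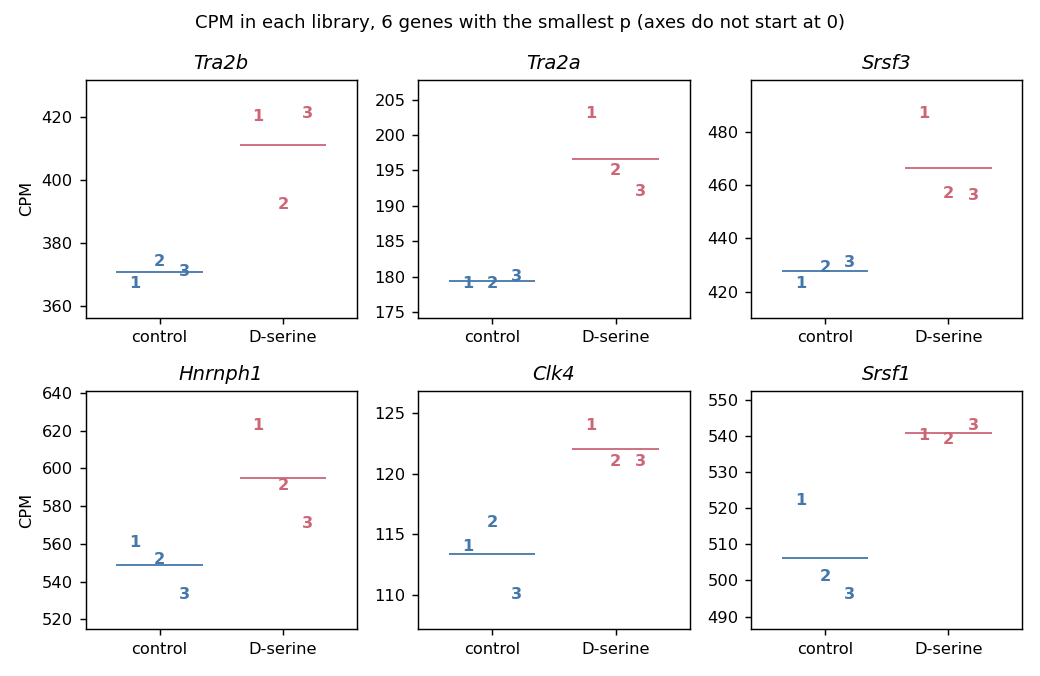
CPM of the 6 members with the smallest p, where each digit is 1 library by its replicate number and the line is the group mean; the axes do not start at 0. In all 6 panels the control and D-serine libraries do not overlap, which choosing genes by small p favors. Of all genes tested, 32.9% did not overlap. In Tra2a, Srsf3, Hnrnph1 and Clk4 the highest value belongs to D-serine replicate 1.

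None of the 10 tested SR protein genes passed the threshold, with 5 positive and 5 negative log2 fold changes and a median of 0.015. DESeq2 and limma-voom also called none of them, and 4 (40.0%) had an unadjusted edgeR p under 0.05, against 28.2% of all genes tested. Srsf3, which encodes the smallest SR protein and also acts in mRNA export, was at 423, 429 and 431 CPM in control and at 487, 457 and 456 CPM with D-serine. The groups did not overlap, and D-serine replicate 1 was the highest library. Its log2 fold change was 0.13 (SE 0.041, 95% interval 0.037 to 0.21, edgeR adjusted p = 0.0698), and 0.094 without D-serine replicate 1 (adjusted p = 0.0603). It passed with the length trend removed (0.12, adjusted p = 0.0133), with upper quartile scaling (adjusted p = 0.0426) and with library totals (0.0364).

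Srsf1, the founding SR protein and an activator of many exons, was at 522, 501 and 496 CPM in control and at 540, 539 and 543 CPM with D-serine. Its D-serine libraries were close together and lay above control replicate 1, the highest control library. The log2 fold change was 0.095 (SE 0.039, edgeR adjusted p = 0.13), and it became 0.16 with the length trend removed (adjusted p = 0.00237). Srsf10, whose protein represses splicing once dephosphorylated, had 0.051 (adjusted p = 0.444) and 0.12 with the trend removed (adjusted p = 0.0186). Both have long exonic sequences, 5560 bases in Srsf1 and 5511 in Srsf10, against a median of 2834.5 bases over all genes tested.

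Srsf9 and Srsf4 had the most negative values among SR genes. Srsf9, the shortest member at 1252 bases, was at 74.6, 75.5 and 80.1 CPM in control and at 72.2, 70.1 and 70.1 CPM with D-serine. The groups did not overlap, with a log2 fold change of -0.12 (SE 0.049, edgeR adjusted p = 0.14) that became -0.19 with the length trend removed (adjusted p = 0.00644). Srsf4 was at 27.9, 24.1 and 25.3 CPM in control and at 20.1, 23.8 and 23.8 CPM with D-serine. Its log2 fold change was -0.19 (SE 0.083, adjusted p = 0.152), and -0.11 without D-serine replicate 1, its lowest library. Because Gm12992 shares most of its exonic bases, the Srsf4 value is uncertain. Srsf2, the SR gene with the highest level, was at 863, 882 and 891 CPM in control and at 907, 832 and 858 CPM with D-serine. Its groups overlapped, and the 95% interval of the log2 fold change ran from -0.11 to 0.068.

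The remaining SR genes had edgeR adjusted p-values between 0.259 and 0.8. Srsf11 and Srsf7 had log2 fold changes of 0.075 and 0.060, and Srsf6 and Srsf5 of -0.026 and -0.043. The Srsf7 value was 0.027 without D-serine replicate 1, and the Srsf5 value was -0.090 with the length trend removed. Srsf5 and Srsf6 had control replicate 3 as their lowest library, at 270 CPM for Srsf5 and 232 CPM for Srsf6, below all 3 of their D-serine libraries. The SR genes together took 0.338% ± 0.0061 of all counts in control and 0.353% ± 0.011 with D-serine (SD, n = 3 each). On the TMM scale their summed level was 3448, 3438 and 3356 CPM in control and 3591, 3434 and 3449 CPM with D-serine, and these ranges overlapped.

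None of the 4 CLK kinase genes passed the threshold by edgeR, DESeq2 or limma-voom, and 2 of the 4 had an unadjusted edgeR p under 0.05, against 28.2% of all genes tested. Clk4 was at 114, 116 and 110 CPM in control and at 124, 121 and 121 CPM with D-serine, groups that did not overlap (a log2 difference of 0.11 with SE 0.043 and edgeR adjusted p = 0.128). Clk1, whose messenger is largely held in the nucleus with introns retained in many cells, was at 122, 121 and 112 CPM in control and at 126, 126 and 129 CPM with D-serine. Its groups did not overlap either (0.10, SE 0.046, adjusted p = 0.16). Clk3 went the other way in value, at 76.9, 70.1 and 74.2 CPM against 71.9, 66.8 and 69.0 CPM, with overlapping groups (-0.090, SE 0.053, adjusted p = 0.285). Clk2, at 92 to 146 counts per library, gave too wide an interval to show a difference of this size (-0.25 to 0.49). In none of the 17 other analyses did Clk1, Clk2, Clk3 or Clk4 pass the threshold.

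None of the 20 hnRNP genes passed the threshold by edgeR, DESeq2 or limma-voom, 4 (20.0%) had an unadjusted edgeR p under 0.05, against 28.2% of all genes tested, and their median log2 fold change was -0.015, with 9 positive and 11 negative. In the A/B/D family, whose proteins pair RNA recognition motifs with a glycine-rich tail, the groups overlapped in all 7 genes and the log2 fold changes ran from -0.061 in Hnrnpa0 to 0.034 in Hnrnpa3. Hnrnpa2b1 was at 854, 844 and 810 CPM in control and at 832, 810 and 787 CPM with D-serine (-0.045, 95% interval -0.13 to 0.041). Hnrnpab had a control level of 585 ± 8.46 CPM and a D-serine level of 591 ± 13.8 CPM (SD, n = 3 each) and an interval from -0.069 to 0.097. Hnrnpdl and Hnrnpd, both on chromosome 5, had values of -0.019 and 0.017. With the length trend removed, Hnrnpd had a value of 0.12 (edgeR adjusted p = 0.136) and Hnrnpa3 of 0.093 (adjusted p = 0.326). Hnrnpa1, with 347 to 454 counts per library, had an interval from -0.26 to 0.17, and a difference of the size seen in Tra2b was not detectable at this depth.

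In the F/H family, whose proteins bind runs of G, the log2 fold changes of the 4 genes ran from -0.14 in Hnrnph3 to 0.12 in Hnrnph1. Hnrnph1 was at 561, 552 and 533 CPM in control and at 623, 591 and 571 CPM with D-serine. Its groups did not overlap (0.12 on the log2 scale, SE 0.043, edgeR adjusted p = 0.10), and the call was made with the length trend removed (0.10, adjusted p = 0.0338). The Hnrnph1 value was 0.083 without D-serine replicate 1, its highest library (edgeR adjusted p = 0.112). Hnrnph2, its close relative, was at 85.8, 85.2 and 85.2 CPM in control and at 90.0, 83.9 and 82.6 CPM with D-serine, groups that overlapped (0.002, 95% interval -0.10 to 0.11). Hnrnpf had a log2 fold change of -0.012, with an interval from -0.097 to 0.073. Hnrnph3 was at 18.2, 17.8 and 19.1 CPM in control and at 17.6, 15.4 and 16.8 CPM with D-serine, without overlap (-0.14, SE 0.077, adjusted p = 0.242), and is uncertain because Rufy2 covers most of its exons.

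In the U family, Hnrnpu and the Hnrnpul genes had values of opposite sign. Hnrnpu (chromosome 1, 180258431 to 180267915, minus strand, as deposited) was at 1489, 1442 and 1422 CPM in control and at 1488, 1528 and 1533 CPM with D-serine. Control replicate 1 and D-serine replicate 1 were nearly equal, and the log2 fold change was 0.064 (SE 0.037, edgeR adjusted p = 0.275). Hnrnpul2 was at 454, 458 and 467 CPM in control and at 413, 437 and 439 CPM with D-serine, without overlap (-0.098, SE 0.041, adjusted p = 0.139). With the length trend removed its value was -0.027. Hnrnpul1 was at 132, 136 and 129 CPM in control and at 115, 132 and 119 CPM with D-serine, where D-serine replicate 2 lay within the control range (-0.12, SE 0.054, adjusted p = 0.173). Its value was -0.18 without that library (adjusted p = 0.0356), where it passed the threshold, and -0.076 without D-serine replicate 1 (adjusted p = 0.294). Over all 17 other analyses it ranged from -0.18 to -0.076.

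The M, L, R, C and K families hold 1 or 2 genes each. Hnrnpm, whose protein prefers GU-rich RNA, was at 288, 280 and 297 CPM in control and at 274, 272 and 271 CPM with D-serine, without overlap (log2 fold change -0.084, SE 0.041, edgeR adjusted p = 0.195). Hnrnpll, an L family gene known for CD45 splicing in lymphocytes, was at 156, 154 and 159 CPM in control and at 146, 144 and 148 CPM with D-serine, also without overlap (-0.10, SE 0.041, adjusted p = 0.134). Both passed with the length trend removed, at adjusted p = 0.0494 for Hnrnpm and 0.0403 for Hnrnpll. Hnrnpl, the relative of Hnrnpll that binds CA-rich RNA, had a value of 0.012 with overlapping groups. Hnrnpr, the longest member at 8015 bases, was at 328, 323 and 317 CPM in control and at 331, 342 and 330 CPM with D-serine (0.051, adjusted p = 0.43), and 0.17 with the length trend removed (adjusted p = 0.00545). Hnrnpc, which packages nascent RNA, and Hnrnpk had values of 0.021 and -0.017, with intervals from -0.066 to 0.11 and from -0.10 to 0.070.

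How many members were called depended on the treatment of the length trend. With each library's smooth trend on length removed, 10 of the 36 members (27.8%) passed, against 15.5% of all genes tested. Of the 36 members, 7 were higher and 3 were lower, where 7.80% of all genes tested were higher and 7.71% lower. Among genes of at least 50 CPM, 31.2% of 32 members and 24.2% of all genes passed. The higher members were Tra2b, Tra2a, Srsf1, Srsf3, Srsf10, Hnrnph1 and Hnrnpr, and the lower members Srsf9, Hnrnpll and Hnrnpm. With the trend removed and D-serine replicate 1 left out, 7 members passed (6 higher and 1 lower), against 14.0% of all genes, and these were Tra2b, Srsf1, Srsf3, Srsf10, Hnrnpr and Hnrnpu, which were higher, and Srsf9, which was lower. Without D-serine replicate 1 and with no correction, Tra2a and Tra2b passed, against 12.5% of all genes. Without D-serine replicate 2, Tra2b and Hnrnpul1 passed, against 11.6% of all genes. No member passed by edgeR without control replicate 1, control replicate 2, control replicate 3 or D-serine replicate 3, where 0.921%, 0.501%, 3.34% and 2.15% of all genes passed. Tra2b, Tra2a and Srsf3 passed with upper quartile scaling, against 9.92% of all genes, and with library totals, against 10.1%. With a mean of at least 50 counts, Tra2b and Tra2a passed, against 11.4%. With the replicate number as a block no member passed, against 2.23% of all genes, and with the block and the length trend removed 8 passed, against 13.8%. The source of the length trend was not tested.

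Genes that work with these factors were counted from lists written out from general knowledge. Of 30 other SR-related and nuclear speckle genes, 1 rose and 3 fell (13.3% called, where 9.74% of all genes were called, 4.84% with an increase and 4.90% with a decrease), and they had a median log2 fold change of -0.036. With the length trend removed, 5 were higher and 3 lower (26.7%, against 15.5% of all genes), and the median was -0.013. Scaf4, which binds the tail of RNA polymerase II, fell from 155 ± 7.70 to 129 ± 5.84 CPM (SD, n = 3 each) with a log2 difference of -0.26 (SE 0.050, edgeR adjusted p = 0.0125), and Bclaf1 (-0.16, adjusted p = 0.0372) and Rsrc1 (-0.23, adjusted p = 0.0437) also fell. The gene that rose was Zranb2, a speckle zinc finger protein (0.17, adjusted p = 0.0469). Of 12 tested of 13 SR protein kinase, phosphatase and import genes, none passed by edgeR, DESeq2 or limma-voom. In 4 of them (33.3%) the unadjusted edgeR p was under 0.05, against 28.2% of all genes tested. Srpk1 alone was lower with the length trend removed (-0.10, edgeR adjusted p = 0.0399). Of 43 tested of 48 other hnRNP-like and tissue-restricted splicing regulators, none rose and 4 fell (9.30%, against 9.74% of all genes), with a median of -0.039. With the length trend removed, 4 were higher and 6 lower (23.3%, against 15.5% of all genes), and the median was 0.013. The 4 that fell without this correction included Khsrp, an AU-rich element binding protein, from 201 ± 2.63 to 169 ± 10.3 CPM (-0.25, SE 0.048, adjusted p = 0.0119), Raly, an hnRNP C relative, from 333 ± 13.1 to 288 ± 9.69 CPM (-0.21, adjusted p = 0.0158), and Pcbp2, a poly(C) binding relative of Hnrnpk, from 719 ± 24.2 to 630 ± 16.8 CPM (-0.19, adjusted p = 0.0166). The fourth was Pcbp3, a relative of Pcbp2 (-0.15, adjusted p = 0.0323). Pcbp2 shares 54.5% of its exonic bases with Map3k12 on the opposite strand and is uncertain.

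Of 61 core spliceosome genes, 5 rose and 3 fell (13.1%, against 9.74% of all genes), with a median of 0.027. With the length trend removed, 2 were higher and 5 lower (11.5%, against 15.5% of all genes), and the median was -0.001. Lsm7, a subunit of the ring on U6 snRNA, rose from 39.0 ± 1.43 to 46.2 ± 1.11 CPM (0.24 on the log2 scale, SE 0.054, edgeR adjusted p = 0.0185), and Snrpd3, an Sm ring subunit, rose from 187 ± 2.84 to 210 ± 5.46 CPM (0.17, adjusted p = 0.0261). Both are short genes, of 468 and 604 bases, and with the length trend removed Lsm7 had an adjusted p of 0.126 and Snrpd3 of 0.248. Snrpd1, of 837 bases, also lost its call with the trend removed (0.073, adjusted p = 0.208). Snrpb, another Sm subunit, fell from 290 ± 7.67 to 251 ± 18.3 CPM (-0.21, adjusted p = 0.0275), and to -0.29 with the trend removed. The other genes that rose were Prpf38a, Snrpb2 and Snrpd1, and the others that fell were Sf3b4 and Usp39. Prpf38a missed the threshold without D-serine replicate 1 (adjusted p = 0.0511). None of 10 minor spliceosome genes passed by edgeR, DESeq2 or limma-voom. An unadjusted edgeR p under 0.05 was found in 3 of them (30.0%), against 28.2% of all genes tested. Of 15 genes of nonsense-mediated decay, the pathway that degrades transcripts with poison exons, 1 rose and 1 fell (13.3%, against 9.74% of all genes). With the length trend removed, 1 was higher and 3 were lower (26.7%, against 15.5% of all genes). Upf1, its central helicase, was at 322, 315 and 316 CPM in control and at 250, 266 and 258 CPM with D-serine (-0.30, SE 0.041, adjusted p = 0.0032), with no overlap between the groups, and it passed in all 17 other analyses. Rbm8a, an exon junction complex subunit, rose from 103 ± 4.68 to 119 ± 3.98 CPM (0.21, adjusted p = 0.0224). Each of the other named genes that passed in these lists, Scaf4, Bclaf1, Rsrc1, Khsrp, Raly, Pcbp2, Lsm7, Snrpd3, Snrpb and Rbm8a, lost its call without control replicate 1, control replicate 2 or D-serine replicate 3, with edgeR adjusted p-values from 0.0538 to 0.154. Over all 17 other analyses, Scaf4 and Khsrp were called in 14, Rbm8a in 13, Raly and Pcbp2 in 12, Lsm7 and Snrpb in 10, and Bclaf1, Rsrc1 and Snrpd3 in 9. Further losses came without control replicate 3 for all but Scaf4, Khsrp and Rbm8a, without D-serine replicate 2 for Rsrc1 and Snrpb, and with the replicate block for all but Scaf4 and Khsrp. Upper quartile scaling ended the calls of Bclaf1, Rsrc1 and Snrpb, and library totals those of Bclaf1 and Rsrc1. Bclaf1 also lost its call with the block and the length trend removed (adjusted p = 0.0563). Zranb2, Pcbp3, Prpf38a, Snrpb2, Snrpd1, Sf3b4 and Usp39 were not followed through the omissions other than that of D-serine replicate 1.

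**Figure D4:**
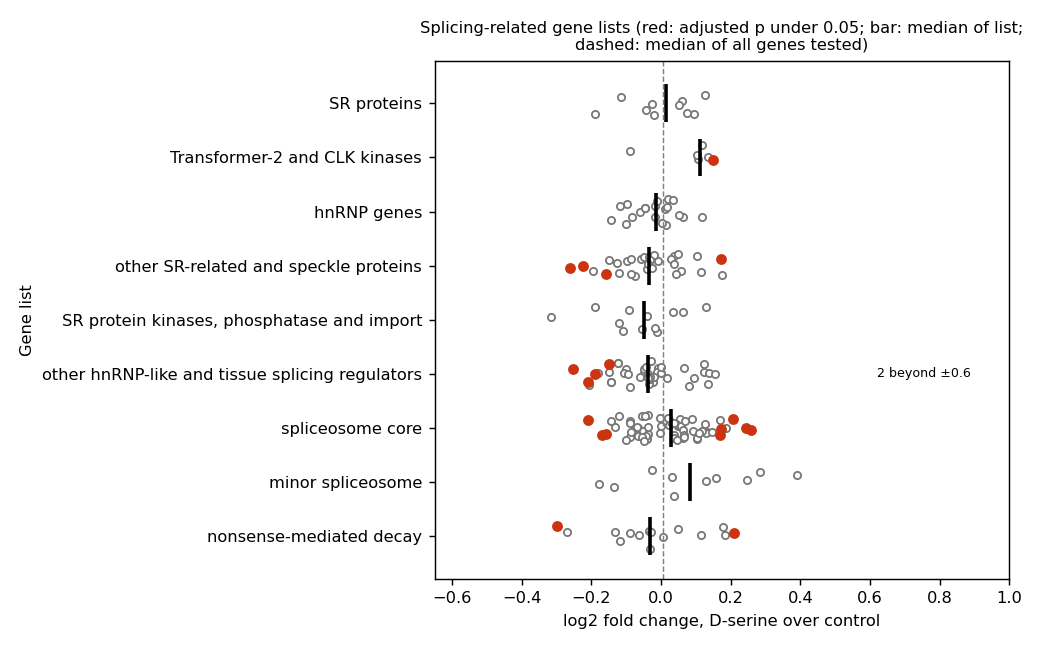
Log2 fold change, D-serine over control, of the tested genes in the splicing-related lists, 1 point per gene, filled red where the adjusted p is under 0.05; the black bar is the list's median and the dashed line the median of all genes tested, 0.005. The hnRNP and SR genes lie close to the dashed line, with Tra2b as the 1 red point among the 36 members.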

How the data were processed

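The authors deposited raw counts per gene and an exon length for every gene, laid out as featureCounts writes them per the file headers. The submitters' processing notes name Trim Galore, HISAT2, featureCounts and DESeq2 and the builds GRCm38 and mm10. Versions, strand setting and treatment of multiply mapped reads are not given in the sources used here. None of the 37 members had the same start as in the RefSeq table of GRCm38, and only 1 overlapped its span there. Positions are printed 1-based as the authors deposited them and should not be read as GRCm38 positions. Their build is not given in the sources used here.

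Counts were tested with edgeR 4.0.16 in R 4.3.3 (filterByExpr, TMM scaling, quasi-likelihood F test, no covariate), with Benjamini-Hochberg adjustment over all 13366 genes tested, two-sided, at 0.05. The SE is the size of the log2 fold change divided by the square root of F, and intervals use the t quantile at the fit's total degrees of freedom. The scripts were tested on simulated data. CPM use TMM-adjusted library sizes. TPM divide by the deposited length. The length trend was a natural spline with 5 degrees of freedom. Shared stretches were counted in GENCODE M21 transcripts, an annotation other than that of the table, on both strands. Exon overlap was computed with bedtools 2.31.1 on either strand. Alternatives used DESeq2 1.42.0, limma 3.58.1 (voom), other scalings and filters, the replicate number, the length trend and omission of each library.

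Members and lists were chosen with earlier results of these data known. The rule for names took every called member, the 2 highest by level and the 2 with the largest change in each family, and up to 3 called genes with the smallest p in each list. Srsf1, Srsf6, Srsf7, Srsf9, Srsf10, Srsf11, Hnrnpa3, Hnrnpd, Hnrnpdl, Hnrnph2, Srpk1, Zranb2, Pcbp3, Prpf38a, Snrpb2, Snrpd1, Sf3b4 and Usp39 were named after their values were seen.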

Additional observations from a re-analysis of the deposited data

How the results depend on the processing

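Direction and call of Tra2b, and the call of none of the other members, were the same with DESeq2 size factors, no filter on low counts, the DESeq2 Wald test and limma-voom. Of the members, 3 were called with upper quartile scaling (9.92% of all genes) and 3 with library totals (10.1%), all higher, 2 with a mean of at least 50 counts (both higher), 10 with the length trend removed (7 higher, 3 lower), and 7 with that and without D-serine replicate 1 (6 higher, 1 lower). Leaving out 1 library gave 0 to 2 members called, 0 to 2 higher and 0 to 1 lower. The median log2 fold change of the members was 0.037 with upper quartile scaling and 0.036 with library totals, where that of all genes was 0.035, -0.021 with the length trend removed and without D-serine replicate 1, and -0.020 to 0.021 over the omissions of 1 library.

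Over all genes, 2073 passed with the length trend removed (1043 higher, 1030 lower). The lower genes numbered 412 with upper quartile scaling, 412 with library totals and 987 with no filter. Leaving out 1 library gave 68 to 1699 genes, 47 to 783 higher and 21 to 916 lower, with the lowest count without control replicate 2 (68), then control replicate 1 (125), D-serine replicate 3 (291) and control replicate 3 (453). The cause was not tested.

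The replicate numbers were not taken to pair the libraries, since the correlations of same-numbered deviations from the group means were -0.127, 0.012 and -0.019. Only control replicate 2 correlated best with the library of its own number. With the replicate number as a block, 298 genes passed (178 higher, 120 lower), 0 members were called (0 higher) and Tra2b had an adjusted p of 0.111. With the block and the length trend removed, 8 members passed (6 higher, 2 lower), against 13.8% of all genes.

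Sign changed only in members near 0, none of them called in any analysis. With upper quartile scaling the values were Hnrnpdl 0.011, Hnrnpf 0.017, Hnrnpk 0.013, Srsf2 0.009 and Srsf6 0.004, and with library totals 0.010, 0.017, 0.013, 0.008 and 0.004. Hnrnph2 was -0.001 with DESeq2 size factors and the DESeq2 Wald test, -0.010 with the length trend removed, -0.011 with that and the block. Hnrnpl was -0.007 in both. With the trend removed and without D-serine replicate 1, Hnrnpab was -0.006, Hnrnpc -0.004, Hnrnph2 -0.039 and Hnrnpl -0.023. Over the omissions of 1 library these genes ranged as follows, from the lowest to the highest value: Hnrnpa1 -0.101 to 0.029, Hnrnpa3 -0.039 to 0.101, Hnrnpab -0.004 to 0.030, Hnrnpc -0.001 to 0.046, Hnrnpd -0.022 to 0.050, Hnrnpf -0.024 to 0.002, Hnrnph2 -0.037 to 0.026, Hnrnpk -0.047 to 0.003, Hnrnpl -0.019 to 0.039, Srsf2 -0.057 to 0.007, Srsf5 -0.116 to 0.013 and Srsf6 -0.085 to 0.013.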
